A study of Mus musculus with 6 samples.

Results

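Protocadherins are cadherin-related adhesion proteins of the cell surface, and their genes were taken from the expression table as every entry whose gene symbol begins with Pcdh. This gave 70 of the 16060 entries of the table. Of these, 58 belong to the clustered protocadherins, with 14 of the Pcdha, 21 of the Pcdhb and 23 of the Pcdhg genes, and 12 are non-clustered. A clustered gene has its own promoter and its own large variable exon, and a neuron switches on only some of them, so that neighboring neurons carry different sets of these proteins on their surface. Their extracellular parts bind the same combination on another cell, which is known to serve self-avoidance of dendrites, neuronal survival and synapse formation. Non-clustered protocadherins, mainly the delta-1 and delta-2 types, are expressed in particular cell layers and circuits and are known for roles in axon growth, cell sorting and synapse turnover.

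The comparison asks whether levels of these genes in the hippocampus differed after repeated methamphetamine (MA), a psychostimulant. Hippocampal RNA of adult male C57BL/6 mice was sequenced, with 3 libraries in the Control group and 3 in the MA group. Each library was taken to be 1 mouse, which the paper does not state. Control mice received saline by intraperitoneal injection. MA mice received MA at 5 mg/kg in week 1, 10 mg/kg in week 2 and 15 mg/kg in week 3, and tissue was taken after behavioral tests on day 22. The deposited values are length-scaled read counts (RPKM) that had been log-transformed. They were taken as log2(RPKM + 1), and back-transformed values are given as RPKM. The base and the offset were inferred, and the depth of the libraries is unknown. P-values measure the spread between the libraries of a group, and fold changes of low genes are understated on this scale.

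Marker genes were looked up beside the tissue label. All 10 markers of hippocampal excitatory neurons passed the filter on low values, which asked for at least 0.5 RPKM in at least 3 of the 6 libraries. All 6 neocortex and all 6 thalamus markers passed it too, so passing does not tell these tissues apart. The summed levels of the hippocampal markers were 1669, 1530 and 1575 RPKM in Control 1, 2 and 3, and 1627, 1872 and 1336 RPKM in MA 1, 2 and 3. Camk2a, a kinase of excitatory synapses, was the most abundant of them.

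The library MA 3 stood apart from the others. Its mean Pearson correlation with the other libraries of its group, across tested genes, was 0.978, against 0.984 and 0.985 for MA 1 and MA 2 and from 0.991 to 0.993 for the Control libraries. Of the 62 protocadherin entries that passed the filter, MA 3 had the lowest of the 6 values in 43, or 69.4%, against 29.8% of all 13321 tested genes. It had the highest value in 2, Pcdha4 and Pcdhgc4, where the share over all tested genes was 25.6%. The difference between MA 3 and the mean of MA 1 and MA 2 also moved with the exonic length of genes. With tested genes divided by exonic length into 4 groups of equal size, its median on the log2 scale was 0.18, 0.02, -0.06 and -0.17 from the shortest to the longest. MA 3 had the lowest value in 11.0%, 24.7%, 35.3% and 48.1% of the genes of these groups. These groups hold 1, 11, 39 and 11 of the protocadherins. Without MA 3 the median log2 fold change between MA and Control also moved with length, at -0.06, -0.02, 0.01 and 0.04 in these groups. The part of length in the protocadherin values was not tested, and results are given with and without MA 3.

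Across the family, 0 of the 62 tested protocadherins differed between MA and Control at a limma adjusted p under 0.05, where 35 of all tested genes did (0.263%). An unadjusted limma p under 0.05 was reached by 4 protocadherins with lower levels in MA, Pcdha3, Pcdhb7, Pcdhb13 and Pcdhb17, where the share of all tested genes was 5.46%. It was reached by 0 with higher levels, where that share was 4.99%. Every MA library lay below every Control library in 7 protocadherins (10.2% of all tested genes) and above in 1 (7.32%). The 7 lower ones were Pcdha3, Pcdhb7, Pcdhb8, Pcdhb13, Pcdhb17, Pcdhb20 and Pcdh8, and the higher one was Pcdha6. For each of these 8 the exact two-sided permutation test gave p = 0.1, the smallest value that 3 libraries against 3 allow. In bulk tissue, fewer cells of a type and less RNA per cell cannot be told apart.

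MA 3 decided several of these counts. Without it, 13 of the 62 were higher and 4 lower at an unadjusted limma p under 0.05, against 11.9% and 11.4% of all tested genes. The adjusted limma p was under 0.05 for 0 of the 62 without MA 3 (1.93% of all tested genes) and for 0 of the 62 with sample quality weights, which gave MA 3 a weight of 0.194 (4.4% of all tested genes). The groups then stood apart, without MA 3, in 22 protocadherins that were higher (20.8%) and 9 that were lower (22.1%). Leaving out MA 1 or MA 2 gave 11 (14.5%) or 16 (14%) lower ones, and leaving out Control 2 gave 2 higher ones (10.8%). The count of 35 over all tested genes was 3, 0 and 0 without Control 1, 2 and 3, and 15, 0 and 257 without MA 1, 2 and 3.

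The Pcdha genes lie on chromosome 18 of GRCm38 from 36930184 to 37187661, and each joins its own variable exon to constant exons that the whole cluster shares. In the annotation, 60.1% of the exonic bases of a Pcdha gene, on average, also belonged to another gene. How reads over shared exons were credited to single genes is not given in the sources used here, so values of single Pcdha and Pcdhg genes are uncertain. Of the 14 entries 12 were tested, and their mean levels ran from 0.628 RPKM for Pcdhac1 to 4.90 RPKM for Pcdhac2, with a median of 1.03 RPKM.

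Pcdha3, an alternate isoform gene of the cluster, had log2 values of 1.30, 1.36 and 1.18 in Control 1, 2 and 3 and of 1.05, 0.78 and 0.70 in MA 1, 2 and 3. All MA libraries were below all Control libraries. The log2 fold change was -0.43 (standard error, SE, 0.13, unadjusted p = 0.0108, limma adjusted p = 0.32), and it was -0.36 without MA 3 (limma adjusted p = 0.162). Pcdha6, of the same kind, had log2 values of 0.61, 0.67 and 0.66 in the Control libraries and of 1.02, 1.13 and 0.69 in MA 1, 2 and 3. MA 3 exceeded the highest Control library only slightly, whereas MA 1 and MA 2 were well above it. Its log2 fold change was 0.30 (SE 0.14, limma adjusted p = 0.519), or 0.43 without MA 3 (limma adjusted p = 0.0933).

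The most abundant Pcdha genes moved in opposite ways in MA 3. Pcdhac2, a C-type isoform that is not chosen at random like the alternate ones, had 5.13, 4.09 and 5.51 RPKM in the Control libraries, 6.72 and 6.00 RPKM in MA 1 and MA 2, and 1.93 RPKM in MA 3. Pcdha4 had 3.34, 4.25 and 3.23 RPKM in the Control libraries, 2.24 and 1.88 RPKM in MA 1 and MA 2, and 7.06 RPKM in MA 3. Thus MA 1 and MA 2 lay on one side of the Control libraries and MA 3 on the other, with opposite signs in the pair. The log2 fold change over all 6 libraries was -0.12 for both genes (SE 0.35 for Pcdhac2 and 0.36 for Pcdha4). Without MA 3 it was 0.32 for Pcdhac2 (limma adjusted p = 0.197) and -0.59 for Pcdha4 (limma adjusted p = 0.0741). Of the exonic bases of Pcdha4, 93% also belong to another gene, the highest share among tested Pcdha genes.

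Pcdha4 made up 16.9%, 21.5% and 16.6% of the summed Pcdha level in the Control libraries, 11.1% and 9.12% in MA 1 and MA 2, and 45.5% in MA 3. The sum over all Pcdha entries differed less, with 19.8, 19.8 and 19.5 RPKM in the Control libraries and 20.2, 20.7 and 15.5 RPKM in MA 1, 2 and 3. Pcdha12, the next most abundant, was between 1.43 and 1.63 on the log2 scale in the Control libraries and was 1.20, 1.76 and 1.23 in MA 1, 2 and 3, with overlapping groups. Pcdhac1, the other C-type gene, was 0.67, 0.92 and 0.73 in the Control libraries and 0.58, 0.86 and 0.39 in MA 1, 2 and 3, again with overlap. Over all 13321 tested genes, 7025 had a negative log2 fold change, and the median was -0.01. Over the 12 tested Pcdha entries, 9 had a negative and 3 a positive one, with a median of -0.13. The median was -0.06 without MA 3, -0.08 without MA 1 or Control 2 and -0.25 without MA 2. It was -0.22 and -0.23 with an offset of 0.1 and 0.01 RPKM in place of 1, and 0.0085 with sample quality weights.

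The Pcdhb genes lie between the other clusters, from 37294812 to 37524479, and have no constant exons, so that each encodes a complete protein by itself. Accordingly, 18 of the 21 entries had 0 exonic bases in common with another gene. The 18 tested genes had low levels in a narrow range, from 0.537 RPKM for Pcdhb19 to 2.88 RPKM for Pcdhb9, with a median of 1.11 RPKM. Most tested Pcdhb genes had lower means in MA, with 15 of 18 negative log2 fold changes and a median of -0.11, or 14 of 18 and a median of -0.07 without MA 3. Of all 13321 tested genes, 7025 had a negative log2 fold change, and 6864 had one without MA 3. The Pcdhb median was -0.17 without MA 2 and -0.05 with sample quality weights. The summed Pcdhb level was 24.4, 27.3 and 26.6 RPKM in the Control libraries and 22.5, 24.7 and 19.7 RPKM in MA 1, 2 and 3. MA 2 thus overlapped the Control range. With an offset of 0.1 or 0.01 RPKM in place of 1, which gives low genes more weight, the median log2 fold change was -0.20 or -0.24.

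In 5 of the 18 every MA library was below every Control library, where 10.2% of all tested genes were in that position, and these 5 share no exonic base with another gene. Pcdhb13 had log2 values of 1.21, 1.25 and 1.29 in the Control libraries and of 0.78, 0.95 and 0.84 in MA 1, 2 and 3. The gap between the groups was wider than the spread within either, and MA 3 lay between the other MA libraries. Its log2 fold change of -0.39 (SE 0.10, unadjusted p = 0.00606) had the smallest p of the family and did not pass the adjusted threshold (limma adjusted p = 0.261, or 0.115 without MA 3). Pcdhb17 had log2 values of 1.86, 1.96 and 1.74 in the Control libraries and of 1.56, 1.67 and 1.49 in MA 1, 2 and 3, with a log2 fold change of -0.28 (SE 0.11, limma adjusted p = 0.442). Pcdhb7 had 1.66, 1.62 and 1.71 in the Control libraries and 1.38, 1.49 and 1.43 in MA 1, 2 and 3, with a log2 fold change of -0.23 (SE 0.10, limma adjusted p = 0.473). In both genes, too, MA 3 was close to the other MA libraries.

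Pcdhb20 had log2 values of 1.76, 1.76 and 1.84 in the Control libraries and of 1.66, 1.65 and 1.53 in MA 1, 2 and 3, a small difference in which the groups came close to each other. Pcdhb8 had 0.86, 1.36 and 0.65 in the Control libraries and 0.52, 0.63 and 0.50 in MA 1, 2 and 3, and its log2 fold change of -0.41 (SE 0.18, limma adjusted p = 0.5) was -0.21 without Control 2. Pcdhb9, the most abundant gene of the cluster, showed no such gap. Its log2 values were 1.90, 1.95 and 2.0 in the Control libraries and 1.88, 2.05 and 1.95 in MA 1, 2 and 3, with a 95% interval of the log2 fold change from -0.22 to 0.25. Without MA 3 an unadjusted limma p under 0.05 with lower levels was left for 1 of the 18, Pcdhb13, where 11.4% of all tested genes had one. Among the untested genes, Pcdhb6 was also higher in every MA library, with log2 values from 0.40 to 0.43 in the Control libraries and from 0.44 to 0.67 in the MA libraries.

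**Figure D1:**
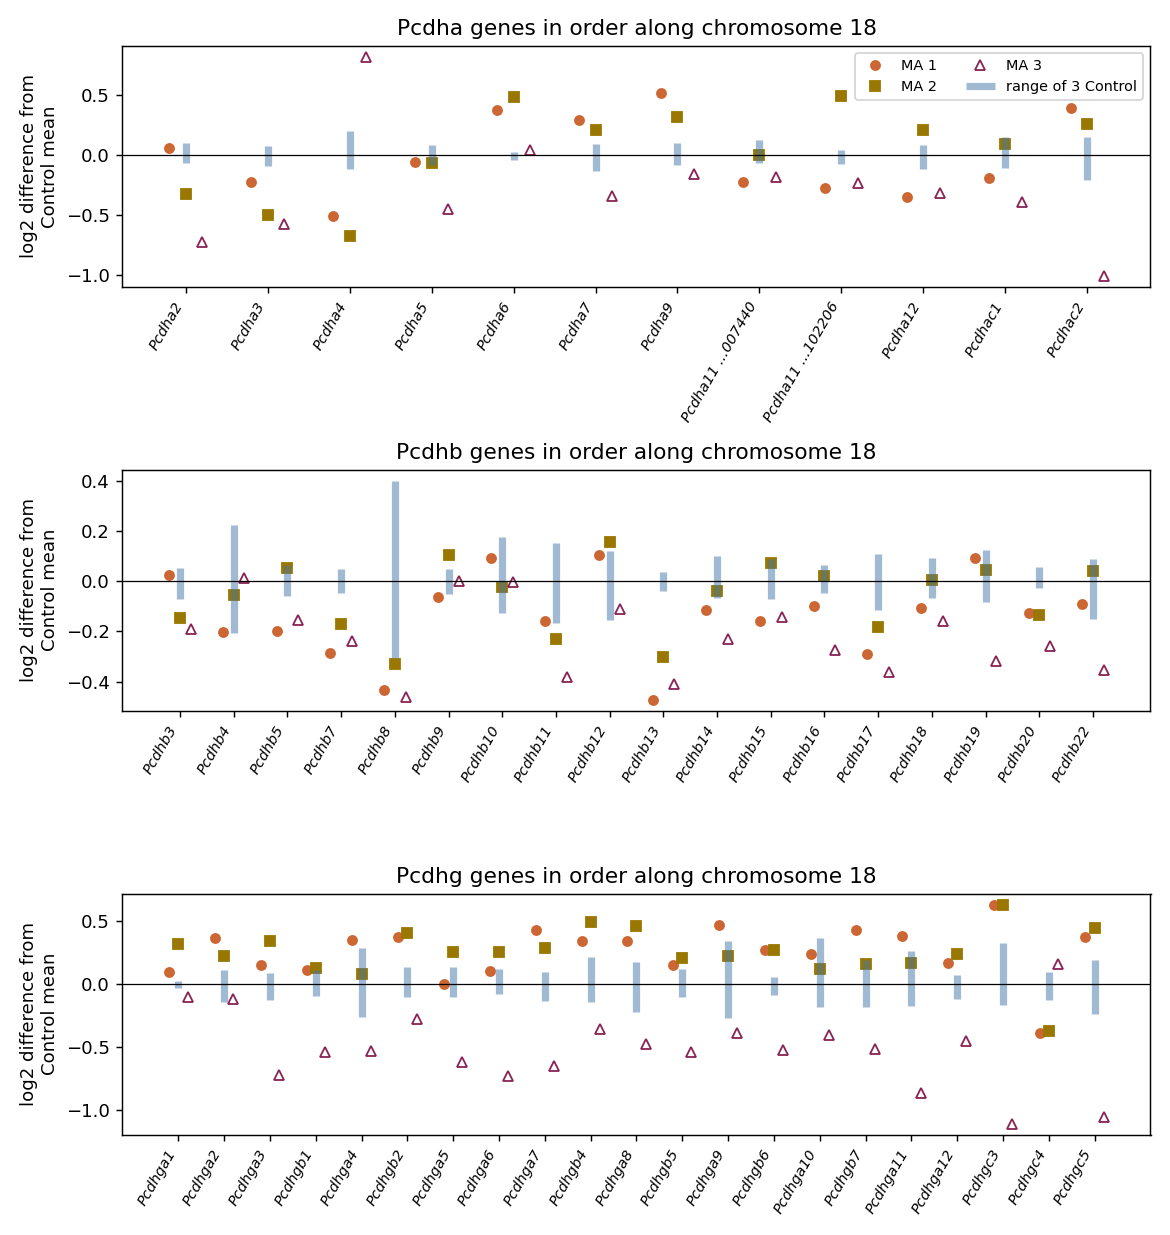
Difference of each MA library from the mean of the 3 Control libraries, on the log2 scale, for the tested Pcdha, Pcdhb and Pcdhg genes in their order on chromosome 18. Bars span the 3 Control libraries, and symbols are MA 1, MA 2 and MA 3. In 19 of the 21 Pcdhg genes MA 3 has the lowest value of the 6 libraries, while in 5 of the 18 Pcdhb genes all MA libraries are below the Control bar, where the shares over all tested genes are 29.8% and 10.2%.

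The Pcdhg genes, from 37661793 to 37841873, again join variable exons to shared constant exons, and on average 50.7% of their exonic bases also belonged to another gene. The cluster holds A-type and B-type genes and 3 C-type genes, of which the middle one in genomic order, Pcdhgc4, is known from mouse genetics to be needed for the survival of neurons. In the expression table the entry of Pcdhgc4 (ENSMUSG00000023036) carries the symbol Pcdhga8, which a further entry carries as well. It is named here after its identifier and its position, from 37815079 to 37841873 on the plus strand.

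That entry dominated the cluster. Pcdhgc4 had 168, 175 and 150 RPKM in the Control libraries, 125 and 126 RPKM in MA 1 and MA 2, and 183 RPKM in MA 3. Its share of the summed Pcdhg level was 77.7%, 80.0% and 71.6% in the Control libraries, 64.3% in both MA 1 and MA 2, and 89.0% in MA 3. MA 1 and MA 2 were thus below every Control library and MA 3 above all of them. The log2 fold change of Pcdhgc4 was -0.20 (SE 0.16, limma adjusted p = 0.716), and it was -0.38 without MA 3 (SE 0.08, unadjusted p = 0.00221, limma adjusted p = 0.0664). With 1 library left out it ranged from -0.38 to -0.11.

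The rest of the cluster went the other way in each MA library. Summed over the other 22 entries, the level was 48.4, 43.8 and 59.4 RPKM in the Control libraries, 69.6 and 69.8 RPKM in MA 1 and MA 2, and 22.6 RPKM in MA 3. The sum over the whole cluster, in contrast, differed less. It was 217, 219 and 209 RPKM in the Control libraries and 195, 196 and 206 RPKM in MA 1, 2 and 3. In this sum every MA library lay below every Control library. Pcdhgc4 makes up most of the sum and by itself overlapped between the groups, and the sum was not tested. How far the division between Pcdhgc4 and the other entries reflects transcripts or the crediting of reads to overlapping exons was not tested. Pcdhgc5, a C-type gene of mature neurons, had 19.8, 15.9 and 21.8 RPKM in the Control libraries, 25.0 and 26.2 RPKM in MA 1 and MA 2, and 8.59 RPKM in MA 3. Pcdhgc3, the other C-type gene, had 6.95, 6.84 and 10.03 RPKM in the Control libraries, 12.6 and 12.7 RPKM in MA 1 and MA 2, and 3.09 RPKM in MA 3. For both genes MA 1 and MA 2 were above and MA 3 below every Control library, and the log2 fold changes were -0.08 for Pcdhgc5 (SE 0.38) and 0.05 for Pcdhgc3 (SE 0.45). Without MA 3 they were 0.41 for Pcdhgc5 (limma adjusted p = 0.134) and 0.63 for Pcdhgc3 (limma adjusted p = 0.09).

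**Figure D2:**
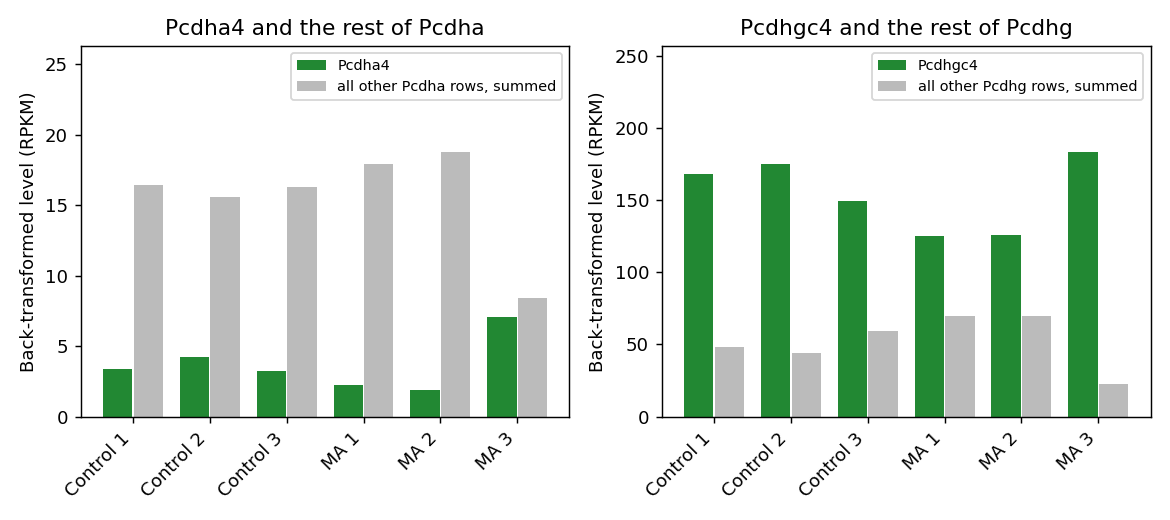
Back-transformed level in RPKM of Pcdha4 beside the sum of all other Pcdha entries (left) and of Pcdhgc4 beside the sum of all other Pcdhg entries (right), 1 pair of bars per library. In MA 3 Pcdhgc4 is at 183 RPKM and the other Pcdhg entries at 22.6 RPKM, whereas in MA 1 the values are 125 and 69.6 RPKM.

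The pattern of Pcdhgc3 and Pcdhgc5 was common in the cluster. In 12 of the 21 tested Pcdhg genes MA 1 and MA 2 were above all Control libraries and MA 3 below all of them, against 8.82% of all tested genes. The count was 3 of 12 for Pcdha and 0 of 18 for Pcdhb. Relative to the Control mean, the median difference over the tested Pcdhg genes was 0.34 in MA 1, 0.26 in MA 2 and -0.53 in MA 3, while the Control libraries lay between -0.09 and 0.12. Over all 6 libraries the median log2 fold change of the Pcdhg genes was therefore -0.02, with 10 positive and 11 negative. Without MA 3 it was 0.27, with 20 of 21 positive and Pcdhgc4 as the exception, where 6457 of all 13321 tested genes were positive. In that fit 7 of the 21 Pcdhg genes reached an unadjusted limma p under 0.05 with higher levels, where 11.9% of all tested genes did. The Pcdhg median also changed sign without Control 3, at 0.04, and with no filter, at 0.0055, and was 0.23 with sample quality weights. It was -0.17 without MA 1, -0.11 without MA 2 and -0.08 with a minimum mean of 5 RPKM.

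Among the non-clustered genes, 11 of 12 were tested, and most stood higher than a typical clustered gene, with a median level of 7.13 RPKM. The delta-1 protocadherins have an additional cytoplasmic motif that binds protein phosphatase-1. Pcdh1, which has the highest level of the non-clustered genes, had log2 values of 5.97, 5.86 and 5.85 in the Control libraries and of 5.92, 5.96 and 5.54 in MA 1, 2 and 3. Only MA 3 was outside the Control range for Pcdh1, and the log2 fold change was -0.09 (SE 0.12). Pcdh9 had log2 values of 3.45, 3.70 and 3.72 in the Control libraries, 4.30 and 3.84 in MA 1 and MA 2, and 3.23 in MA 3. Pcdh7 had 2.11, 2.45 and 2.81 in the Control libraries and 3.27, 2.84 and 2.15 in MA 1, 2 and 3. In both genes MA 1 and MA 2 were above every Control library, as also in Pcdh15, Pcdh17 and Pcdh18. This pattern was present in 5 of the 11 tested non-clustered genes, in 13 of the 21 Pcdhg genes and in 20.8% of all tested genes. The log2 fold changes were 0.17 for Pcdh9 (SE 0.25) and 0.30 for Pcdh7 (SE 0.29), and without MA 3 they were 0.45 and 0.60 (limma adjusted p = 0.152 and 0.172). With 1 library left out, the lowest value for Pcdh7 was 0.040. Pcdh11x, on the X chromosome, was low, with log2 values from 0.57 to 1.00 in the Control libraries and from 0.59 to 1.06 in the MA libraries.

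Of the delta-2 protocadherins, Pcdh8 is known as a synaptic protein whose gene responds to neuronal activity and which takes N-cadherin from the surface of dendritic spines. Pcdh8 lies on chromosome 14 from 79766775 to 79771312, on the minus strand. Its log2 values were 4.54, 4.03 and 4.14 in the Control libraries and 3.86, 4.01 and 3.89 in MA 1, 2 and 3. It was the non-clustered gene in which every MA library was below every Control library, although Control 2 and MA 2 differed little, and MA 3 did not stand apart in it. The log2 fold change was -0.31 (SE 0.14, 95% interval from -0.64 to 0.02, unadjusted p = 0.0589, limma adjusted p = 0.498), or -0.30 without MA 3. It was -0.16 without Control 1, the library with the highest Pcdh8 value.

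The other delta-2 genes had overlapping groups. Pcdh10, which takes part in activity-dependent synapse elimination, had log2 values of 3.98, 3.51 and 3.55 in the Control libraries and of 4.10, 3.44 and 3.08 in MA 1, 2 and 3. Pcdh17, a gene of presynaptic assembly in corticobasal circuits, had 2.73, 2.34 and 2.63 in the Control libraries and 2.94, 2.89 and 2.07 in MA 1, 2 and 3. Pcdh19, an X-linked gene mutated in an epilepsy of girls and women, had 3.17, 2.85 and 2.96 in the Control libraries and 3.27, 3.15 and 2.64 in MA 1, 2 and 3. In each of these 3 genes MA 3 was the lowest library, and the log2 fold changes were -0.14, 0.06 and 0.03. Pcdh18 was near the filter, with log2 values from 0.57 to 0.67 in the Control libraries and from 0.30 to 0.75 in the MA libraries.

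The remaining non-clustered genes are not counted with the delta types here. Pcdh20 had log2 values of 4.38, 3.93 and 4.10 in the Control libraries and of 4.10, 4.19 and 3.69 in MA 1, 2 and 3. Pcdh15, best known from the tip links of hair cells in the inner ear, had 0.95, 1.13 and 1.31 in the Control libraries and 1.46, 1.45 and 1.07 in MA 1, 2 and 3. Neither gene separated the groups, with log2 fold changes of -0.15 for Pcdh20 and 0.20 for Pcdh15 (limma adjusted p = 0.823 and 0.719). With 1 library left out, the value for Pcdh15 ranged from 0.10 to 0.32. Pcdh12, a gene of endothelial cells, was below the filter, with log2 values from 0.07 to 0.34 over the 6 libraries.

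**Figure D3:**
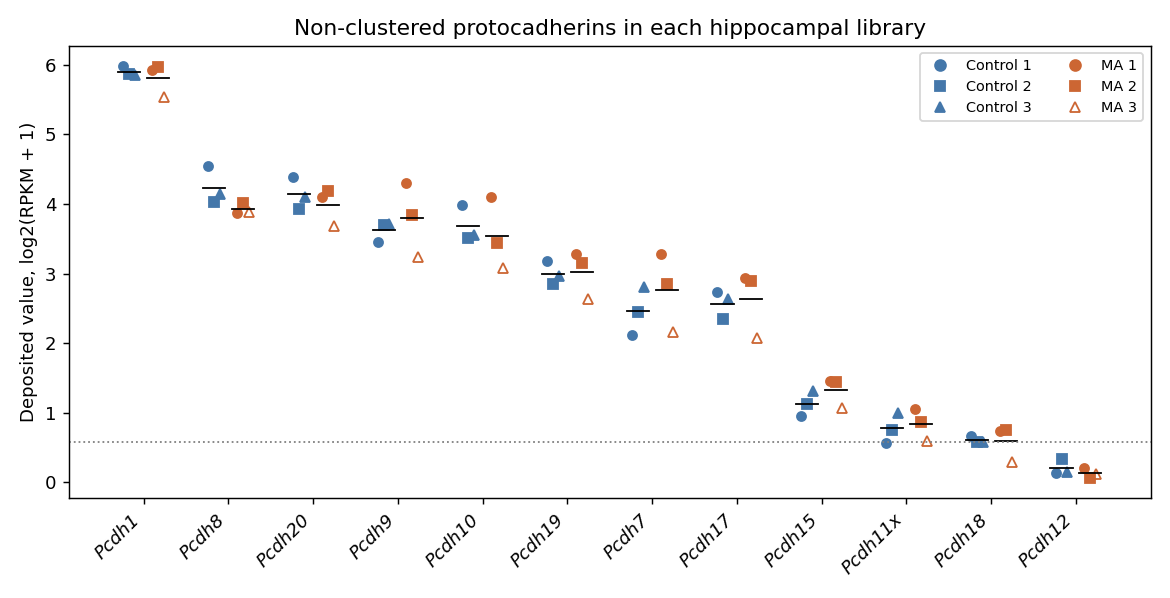
Log2 values of the 12 non-clustered protocadherins in each of the 3 Control and 3 MA libraries, ordered by mean level, with lines at the group means. The dotted line marks 0.5 RPKM, the level used in the filter, and MA 3 is drawn with open symbols. Pcdh8 has all MA values, from 3.86 to 4.01, below all Control values, from 4.03 to 4.54.

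Set side by side, the median log2 fold change was -0.08 for the clustered genes over 51 tested members, with 16 positive and 35 negative, and 0.03 for the non-clustered genes over 11, with 6 positive and 5 negative. Negative values were found in 7025 of all 13321 tested genes. Without MA 3 both medians were positive, at 0.11 and 0.19, against -0.01 for all tested genes. The median difference from the Control mean was 0.09 and 0.12 in MA 1 and MA 2 and -0.36 in MA 3 for the clustered genes. For the non-clustered genes it was 0.28, 0.14 and -0.35. The sign of the clustered median thus changed with MA 3, as did that of Pcdhg, while the medians of Pcdha and Pcdhb were negative with and without it. With sample quality weights the medians were 0.11 for the clustered and 0.12 for the non-clustered genes. The non-clustered median was -0.05 without Control 2, -0.09 without MA 1, -0.07 without MA 2 and -0.03 with a minimum mean of 5 RPKM, so its sign also depended on single libraries. The clustered median was -0.14 without MA 1, -0.17 without MA 2, and -0.18 and -0.20 with an offset of 0.1 and 0.01 RPKM. The difference between clustered and non-clustered genes was not tested.

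Of 20 genes for cohesin, CTCF and silencing of the clustered loci, which set the contacts between Pcdh promoters and enhancers or methylate these promoters, 19 were tested and 0 passed a limma adjusted p under 0.05. At an unadjusted limma p under 0.05, Stag2 of cohesin was higher in MA (4.99% of all tested genes) and Pds5b, which regulates cohesin, was lower (5.46%). Without MA 3, 0 of the 19 were higher (11.9%) and 5 lower (11.4%) at that threshold. Stag2 had log2 values of 4.27, 4.16 and 4.91 in the Control libraries and of 5.07, 4.83 and 4.88 in MA 1, 2 and 3. Pds5b had 4.39, 4.26 and 4.17 in the Control libraries and 4.02, 4.05 and 4.07 in MA 1, 2 and 3. Pds5b separated the groups and Stag2 did not, and their log2 fold changes were -0.23 and 0.48 (limma adjusted p = 0.437 and 0.458). Ctcf, whose protein binds the Pcdh promoters, had log2 values of 4.38, 4.25 and 4.54 in the Control libraries and of 4.35, 4.55 and 4.13 in MA 1, 2 and 3, and Rad21 of cohesin had 4.74, 4.77 and 4.88 and then 4.98, 4.86 and 4.64. Both overlapped between the groups.

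Smchd1, which is needed for silencing of the clusters, had log2 values of 3.75, 3.86 and 3.77 in the Control libraries, 3.36 and 3.40 in MA 1 and MA 2, and 3.77 in MA 3. MA 1 and MA 2 were below all Control libraries while MA 3 was within their range, and the log2 fold change of -0.28 had a limma adjusted p of 0.499, which was 0.0402 with sample quality weights and 0.0539 without MA 3. Dnmt3b, which methylates promoters of the alternate isoforms, was below the filter. Of 18 binding partners and effectors of the cytoplasmic tails, 0 passed the adjusted threshold and Marcks was lower at an unadjusted limma p under 0.05 (5.46% of all tested genes), with log2 values of 5.22, 5.17 and 5.19 in the Control libraries and of 5.11, 4.83 and 4.93 in MA 1, 2 and 3. Of the 6 proteases that cut protocadherins, 0 passed either limma threshold over all libraries. Psenen, a subunit of gamma-secretase named after its values were seen, passed the adjusted one with sample quality weights (limma adjusted p = 0.0451, or 0.0656 without MA 3). Among 12 other large cadherins, 9 were tested, 0 passed the adjusted limma threshold and Fat3 was lower at an unadjusted p under 0.05 (5.46%), with log2 values of 1.91, 1.75 and 1.89 in the Control libraries and of 1.68, 1.47 and 1.30 in MA 1, 2 and 3. Without MA 3, 2 of these 9 were higher and 1 lower at the unadjusted limma threshold, against 11.9% and 11.4% of all tested genes. Of the 18 partners 1 was higher and 1 lower, and of the 6 proteases 0 were higher and 1 lower.

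Beside the protocadherins, 2 lists of marker genes had members past the adjusted threshold over all 6 libraries. All 7 choroid plexus markers were higher in MA at an unadjusted limma p under 0.05 (4.99% of all tested genes). Of these, 4 passed the adjusted threshold (0.263%), or 6 without MA 3 (1.93%). Without Control 2, Control 3 or MA 2, 0 of all tested genes passed it, and so 0 of these markers. Their summed level was 65.6, 174 and 421 RPKM in the Control libraries and 1776, 2308 and 5079 RPKM in MA 1, 2 and 3, with Ttr as the most abundant. All 5 blood markers were also higher, 3 of them past the adjusted limma threshold (0.263% of all tested genes) and 5 without MA 3 (1.93%). They summed to 1599, 2024 and 1911 RPKM in the Control libraries and 4378, 3319 and 3849 RPKM in MA 1, 2 and 3, with Hba-a2 as the most abundant. The adjusted calls of blood markers, too, were lost without Control 2, Control 3 or MA 2. MA 3 was on the same side as the other MA libraries for both lists. None of the markers of either list was at 0 in a Control library. The part of choroid plexus and blood in the protocadherin values was not tested.

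The 6 thalamus markers, led by Prkcd, were highest in MA 1 and MA 2, as most Pcdhg genes were. They summed to 27.9, 23.1 and 28.9 RPKM in the Control libraries, 51.2 and 66.6 RPKM in MA 1 and MA 2, and 22.4 RPKM in MA 3. MA 3 had the lowest value in 2 of the 6 markers, against 19 of the 21 Pcdhg genes. At an unadjusted limma p under 0.05, 1 thalamus marker was higher in MA (4.99% of all tested genes), and all 6 were without MA 3 (11.9%). With sample quality weights 2 passed the adjusted limma threshold (4.4% of all tested genes), and without MA 3 0 did (1.93%). The 6 endothelial markers, led by Cldn5, summed to 58.0, 63.2 and 63.9 RPKM in the Control libraries and to 95.2, 82.3 and 66.3 RPKM in MA 1, 2 and 3, with 2 higher at that unadjusted threshold (4.99%) and 4 without MA 3 (11.9%), where Slco1a4 also passed the adjusted one (limma adjusted p = 0.0298). For the 6 astrocyte markers, led by Slc1a2, the sums were 477, 461 and 503 RPKM in the Control libraries and 553, 479 and 341 RPKM in MA 1, 2 and 3. MA 3 had the lowest value in 5 of the 6 astrocyte markers. At an unadjusted limma p under 0.05, 1 was lower in MA over all libraries (5.46%), whereas without MA 3 0 were lower (11.4%) and 2 higher (11.9%). Whether more thalamic tissue or fewer astrocytes in a sample took part in the protocadherin values was not tested.

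Of the 10 hippocampal excitatory neuron markers, 3 were lower in MA at an unadjusted limma p under 0.05 (5.46% of all tested genes), and 0 passed the adjusted threshold. Chosen after its values were seen, Neurod6, a transcription factor of pyramidal neurons, had log2 values of 6.49, 6.26 and 6.08 in the Control libraries and of 5.84, 5.97 and 5.74 in MA 1, 2 and 3. The 6 interneuron markers, led by Sst, summed to between 806 and 933 RPKM in the Control libraries and between 753 and 844 RPKM in the MA libraries, with 0 past an unadjusted limma p under 0.05. Without MA 3, 4 of the excitatory neuron markers were lower (11.4%) and 1 higher (11.9%), and 0 interneuron markers passed in either direction. Over all libraries the same count was 0 for the 6 oligodendrocyte markers, led by Mbp (sums from 2767 to 3007 RPKM in Control and from 2635 to 3203 RPKM in MA), and for the 6 microglia markers, led by C1qa (from 126 to 139 RPKM and from 131 to 133 RPKM). Of the 5 markers of oligodendrocyte precursors, led by Sox10, 1 was higher, against 4.99% of all tested genes (from 36.9 to 41.5 RPKM and from 38.9 to 42.2 RPKM), and of the 6 neocortex markers, led by Lamp5, 1 was lower, against 5.46% (from 47.6 to 67.8 RPKM and from 46.6 to 56.6 RPKM). Without MA 3, 3 oligodendrocyte markers were lower (11.4% of all tested genes), and 1 microglia marker was higher (11.9%) and 1 lower. Calls at the adjusted limma threshold were gained by Pdgfra of the precursors without MA 3 (limma adjusted p = 0.0328) and by Aif1 of microglia with sample quality weights (limma adjusted p = 0.0456). The part of these cells in the protocadherin values was not tested.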

How the data were processed

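The study's methods name Hisat2 for alignment, featureCounts for counting and a conversion to FPKM by gene length and sequencing depth, whereas the submitters' processing notes name Bowtie 0.12.2 and the builds mm8 and mm9. The authors deposited a table named as RPKM, whose values were read as log2(RPKM + 1) and share 1 highest value in all 6 libraries. The log transform and the step that gave the libraries a common highest value are not described. Values were tested with limma 3.58.1 in R 4.3.3 (lmFit, eBayes with trend), without covariates and with Benjamini-Hochberg adjustment over 13321 genes. The fit was tested on simulated data.

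The design assumed linear RPKM, and the test was run on the log values as they stand. Members and lists were chosen with earlier results of these data known. Named genes were all non-clustered genes, the 3 most abundant genes of each cluster, the C-type genes, and members with an unadjusted p under 0.05 or with separate groups. From 4 lists of related genes, those with such a p and Ctcf, Rad21, Smchd1 and Dnmt3b were named. Psenen and single marker genes were named after their values were seen, and 11 lists of marker genes were summed. Coordinates and exon sharing are from GENCODE M21 (GRCm38), which held 69 of the 70 identifiers, and serve for location only. The 2 entries with the symbol Pcdha11 were kept apart, and Pcdhb1 is not analysed here. Just inside the filter were Pcdhgb4 and Pcdh18, at or above 0.5 RPKM in 3 libraries, and just outside was Pcdha1, in 2. Also untested were Pcdha8, Pcdhb2, Pcdhb6, Pcdhb21, Pcdh12 and 2 entries with the symbol Pcdhgb8.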

Additional observations from a re-analysis of the deposited data

How the results depend on the processing

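Under all alternatives run, 0 protocadherins passed a limma adjusted p under 0.05. At an unadjusted limma p, 1 was higher with no filter (4.85% of all genes in that fit) and 7 with sample quality weights (12.9%), and from 0 to 13 with 1 library left out (11.9% without MA 3, where the 13 were). 0 were lower with a minimum mean of 5 RPKM (5.42%), which left 11 members, and 7 with the weights (13.4%). Groups were separate and higher in 2 with no filter (7.32%), in 0 with a minimum mean of 5 (6.96%), and in 1 to 22 with 1 library left out (20.8% without MA 3, where the 22 were), and separate and lower in 1 with that minimum (9.91%) and in 7 to 16 with 1 library left out (14% without MA 2, where the 16 were). The Pcdhb median was -0.20 and -0.24 with an offset of 0.1 and 0.01. No Pcdha or Pcdhb median could be given for a minimum mean of 5. Over all genes, 35 became 3 with no filter, 20 with a minimum mean of 5, 586 with weights and from 0 to 257 with 1 library left out.

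A fit with a replicate block left 15 genes past the threshold over all genes, of which 0 were protocadherins. Deviations of same-numbered libraries correlated at -0.197, -0.242 and -0.337 across genes, so the numbers do not pair the mice.

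With sample quality weights the log2 fold change changed sign to 0.054 for Pcdha12, 0.26 for Pcdhac2, 0.38 for Pcdhgc5, 0.040 for Pcdh20, 0.043 for Pcdh1, 0.12 for Pcdh18 and 0.11 for Ctcf, and with 1 library left out it ranged from -0.59 to 0.16 for Pcdha4, -0.38 to 0.32 for Pcdhac2, -0.030 to 0.053 for Pcdhb9, -0.24 to 0.63 for Pcdhgc3, -0.34 to 0.41 for Pcdhgc5, -0.17 to 0.047 for Pcdh1, -0.42 to 0.092 for Pcdh10, -0.045 to 0.19 for Pcdh11x, -0.090 to 0.34 for Pcdh17, -0.090 to 0.14 for Pcdh18, -0.10 to 0.22 for Pcdh19, -0.25 to 0.0055 for Pcdh20, -0.084 to 0.45 for Pcdh9, -0.15 to 0.062 for Ctcf and -0.042 to 0.13 for Rad21. Of the other values for named genes, 442 kept sign and side of the threshold and 1, Smchd1 with weights, passed it. Psenen and the single marker genes are not part of this count. The cause of these changes was not tested, beyond the fewer genes or libraries of some fits. The depth of the libraries is unknown, so counting error could not be set apart from the spread between the mice behind the 3 libraries of a group.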
